A study of Mus musculus with 6 samples.

Results

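The members described here are 8 genes that encode the core proteins of cell surface heparan sulfate proteoglycans: the glypicans Gpc1, Gpc3, Gpc4 and Gpc6 and the syndecans Sdc1, Sdc2, Sdc3 and Sdc4. They were taken by symbol, and all 8 were found among the 31053 gene rows of the count tables. The study asked how aging changes the stromal cells of inguinal white adipose tissue (iWAT) of C57BL/6 mice during cold exposure. Young mice were 9 weeks old and aged mice 57 weeks old, and all had first been acclimated to 30 °C for 3 weeks. They then stayed at 30 °C (thermoneutrality, TN) or spent the last 3 days (3D) or 14 days (14D) at 6 °C. Stromal vascular cells were depleted of CD45+ immune cells and profiled by droplet single-cell RNA-seq, with 1 library for each age and temperature and therefore 6 libraries in all. The strain name C57BL/6 and the acclimation were common to all 6 groups. Per the paper the mice were C57BL/6JN or C57BL/6J from different suppliers, and it does not state which groups came from which. A part of substrain or supplier in the age differences was not tested. The number of mice behind each library is not given in the sources used here, so the p-values below measure the spread between these libraries only.

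Heparan sulfate proteoglycans carry long sulfated sugar chains that bind growth factors, morphogens and matrix proteins at the cell surface. Glypicans are held in the outer leaflet of the membrane by a glycosylphosphatidylinositol (GPI) anchor and are known as modulators of Hedgehog, Wnt, BMP and FGF signals. Syndecans span the membrane, signal through a short cytoplasmic tail and act as coreceptors with integrins and growth factor receptors. In adipose tissue the adipocyte stem and progenitor cells (ASPCs) are PDGFRα+ fibroblastic cells that sit among vessels and nerves, so that ligands from several cell types reach them through such coreceptors.

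Gpc3, whose loss causes an overgrowth syndrome and which dampens Hedgehog signaling, lies on the minus strand of chromosome X from 52272426 to 52613950 (GENCODE annotation, mouse build GRCm38, as for all positions here). Gpc4 lies on the same strand from 52053021 to 52165252, with 107 kb between them. The other glypicans are Gpc1 on chromosome 1 (92831645 to 92860779) and Gpc6 on chromosome 14 (116925315 to 117976544). The syndecans are Sdc1 on chromosome 12 (8771323 to 8793715), Sdc2 on chromosome 15 (32920723 to 33034935), Sdc3 on chromosome 4 (130792537 to 130826319) and Sdc4 on chromosome 2 (164424247 to 164443887). The promoter windows of Gpc3 and Sdc3 are shown because these genes carry the age result and the lineage result described below. Each is the 250 bases before the RefSeq transcription start (build GRCm38.p6), written 5′ to 3′ on the strand of the gene, with GC boxes (GGGCGG, on either strand) in capitals:
Gpc3, chrX:52613975-52614224 (−): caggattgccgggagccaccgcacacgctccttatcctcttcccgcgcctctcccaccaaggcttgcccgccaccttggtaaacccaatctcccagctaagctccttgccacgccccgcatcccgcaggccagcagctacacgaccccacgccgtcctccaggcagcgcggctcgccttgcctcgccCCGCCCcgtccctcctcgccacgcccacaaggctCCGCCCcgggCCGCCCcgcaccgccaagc
Sdc3, chr4:130792287-130792536 (+): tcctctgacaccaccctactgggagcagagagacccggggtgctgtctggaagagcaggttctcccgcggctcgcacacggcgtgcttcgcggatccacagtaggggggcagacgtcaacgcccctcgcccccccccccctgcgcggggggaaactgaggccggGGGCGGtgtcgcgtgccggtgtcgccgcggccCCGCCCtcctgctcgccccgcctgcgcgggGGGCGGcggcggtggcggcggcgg
Both windows were rich in G and C, at 71.6% for Gpc3 and 76.4% for Sdc3 against a median of 52.4% over 32851 promoter windows of the same length. They held 25 and 32 CpG dinucleotides against a median of 6. Each held 3 GC boxes, which 32.7% of all windows hold at least once, and neither held the letters TATAAA on either strand, which 12.4% of windows do. Windows were available for 5 of the 8 members.

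The libraries held 68103 barcodes, of which 57326 passed the cell filters, and their total UMIs (unique molecular identifiers, counted transcripts) ranged from 52068837 to 88508349. The library of aged mice after 14D of cold stood apart: its median was 2588 UMIs per barcode against 6232 to 8954 elsewhere, and 26.8% of its cells were ASPCs to which no class could be given, against 7.69% to 9.65% elsewhere. Depth also went with age. The medians were 8954, 7809.5 and 7225 UMIs in young TN, 3D and 14D libraries and 6232, 6540 and 2588 in the aged ones. Every aged library was thus shallower than every young one. The library of aged mice at TN held more endothelial cells (14.9% of its cells against 4.70% to 6.96%). Across libraries 524 barcodes occurred more than once. Cells were assigned by marker genes, none of them a member, to Dpp4+ fibroblasts (21522 cells), Icam1+ preadipocytes (18211) and Cd142+ fibroblasts (5061) among the ASPCs, and to endothelial (4081), mural (733), Schwann (115) and immune cells (194). These names stand for cells that passed a gate and not for sorted populations. Since the gate was made from these markers, their levels are no check of the names. Since Gpc3 and Gpc4 are X-linked, the sex-linked genes were read as well: Xist had at most 12 UMIs in the ASPCs of any library, and the Y-linked Ddx3y had at least 8786 UMIs in each.

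The members divided the ASPC classes between them. Levels are given as CPM, that is UMIs of a gene scaled to the same total of UMIs for each class and library, which allow comparison of a gene between samples but not of genes with each other. Gpc3 and Gpc6, a glypican whose loss in humans shortens the limbs, were highest in Dpp4+ fibroblasts and, for Gpc3, also in Cd142+ fibroblasts. Gpc1, a glypican of nerve and vessel known to bind FGFs, and Sdc1, the syndecan of epithelia and plasma cells, were highest in Icam1+ preadipocytes. Sdc4, the syndecan of focal adhesions, was highest in Cd142+ fibroblasts. With the library as a block, 20 of the 24 member comparisons between classes passed (edgeR's quasi-likelihood test, Benjamini-Hochberg adjusted p below 0.05). The background was wide: 68.2% of the 14015 genes tested differed between Icam1+ preadipocytes and Dpp4+ fibroblasts, 54.4% between Cd142+ and Dpp4+ fibroblasts and 43.1% between Cd142+ fibroblasts and Icam1+ preadipocytes. The member counts of 7, 7 and 6 of 8 are to be read against these shares.

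**Figure D1:**
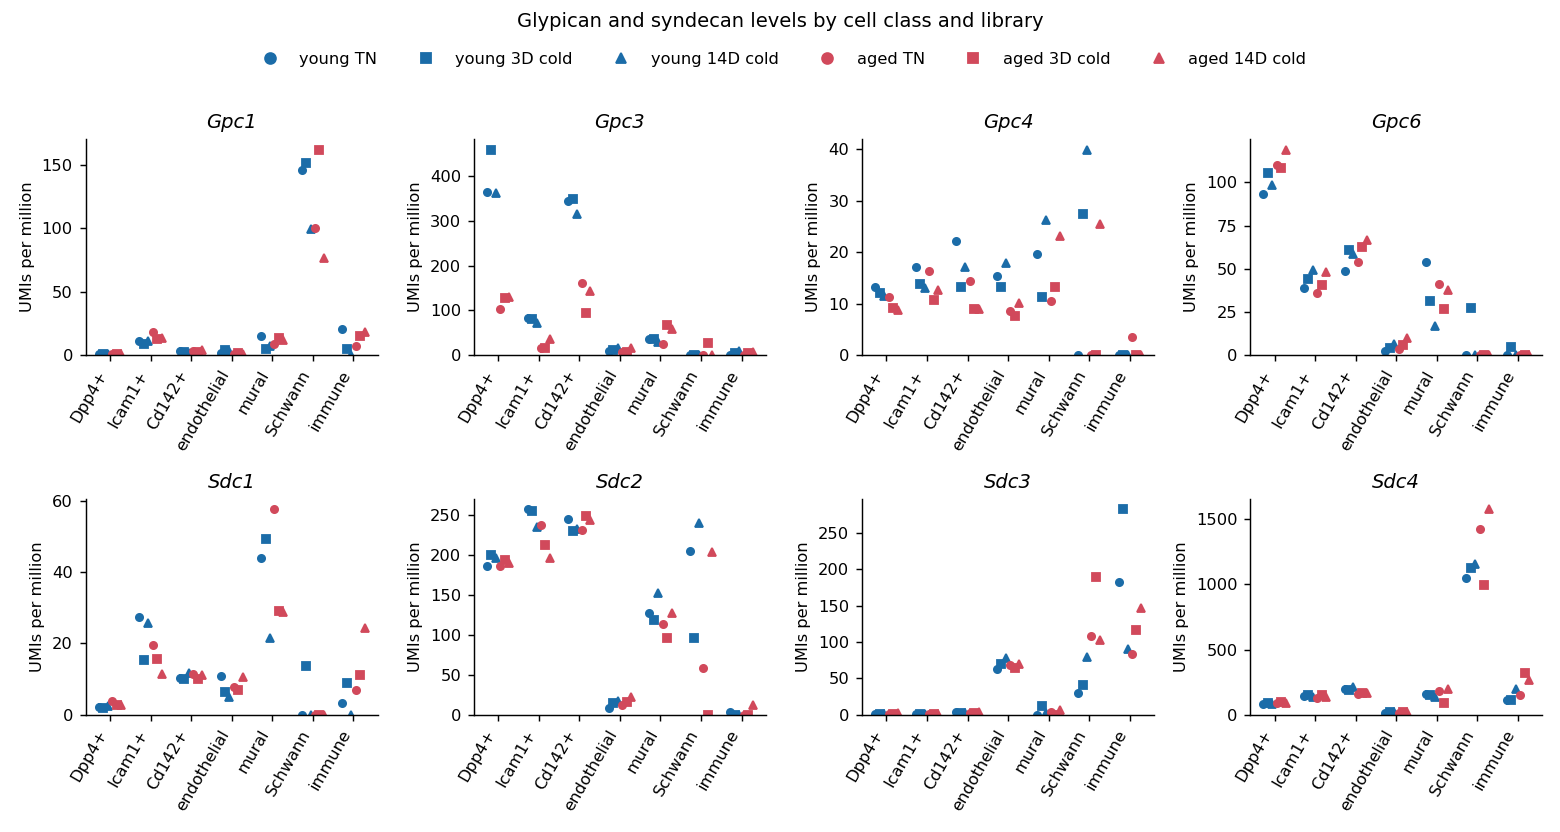
Level of each glypican and syndecan (y axis, CPM, linear from 0) in 7 cell classes (x axis), with 1 point per library, blue for young and red for aged and the symbol giving the temperature. Gpc3 is the member whose young and aged points lie apart in all 3 ASPC classes, Sdc3 is near 0 in the ASPC classes and above 60 in endothelial cells, and Sdc4 is near or above 1000 in the few Schwann cells.

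The differences between classes in Gpc1 and Sdc1 were large. Gpc1 had 0.652 ± 0.221 CPM in Dpp4+ fibroblasts (mean ± SD, n = 6 libraries), 2.80 ± 0.956 in Cd142+ fibroblasts and 12.5 ± 3.24 in Icam1+ preadipocytes. On the log2 scale Icam1+ preadipocytes exceeded Dpp4+ fibroblasts by 4.27 (SE 0.14, adjusted p = 1.36e-13) and Cd142+ fibroblasts fell by 2.18 against Icam1+ preadipocytes (SE 0.15, adjusted p = 9.93e-09). The ranges of the 3 classes did not overlap. Sdc1 had the same order, with 2.52 ± 0.644 CPM in Dpp4+ fibroblasts, 10.7 ± 0.703 in Cd142+ fibroblasts and 19.1 ± 6.31 in Icam1+ preadipocytes, and its log2 difference between the last and the first was 3.01 (SE 0.16, adjusted p = 5.53e-11). For this gene the lowest Icam1+ library, at 11.4 CPM, lay below the highest Cd142+ library, at 11.7 CPM.

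Gpc6 and Gpc3 were lowest in the Icam1+ preadipocytes. Gpc6 had 106 ± 9.11 CPM in Dpp4+ fibroblasts, 58.4 ± 6.44 in Cd142+ fibroblasts and 42.7 ± 5.46 in Icam1+ preadipocytes (n = 6), and the Icam1+ level was below the Dpp4+ level by a log2 difference of -1.27 (SE 0.06, adjusted p = 5.84e-12). Gpc3 was lower in Icam1+ preadipocytes than in Dpp4+ fibroblasts by a log2 difference of -2.39 (SE 0.15, adjusted p = 5.84e-10). Between Dpp4+ and Cd142+ fibroblasts Gpc3 differed by -0.04 (SE 0.15, adjusted p = 0.826), within the spread of the libraries. Sdc4, by contrast, rose in steps from 88.7 ± 5.25 CPM in Dpp4+ fibroblasts through 139 ± 10.3 in Icam1+ preadipocytes to 181 ± 21.6 in Cd142+ fibroblasts, and all 3 steps passed the test.

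Sdc2, a syndecan of mesenchymal cells, was the most evenly spread, at 191 ± 5.45 CPM in Dpp4+ fibroblasts, 232 ± 23.6 CPM in Icam1+ preadipocytes and 238 ± 8.12 CPM in Cd142+ fibroblasts. Its log2 differences from Dpp4+ fibroblasts, 0.32 and 0.34 (both SE 0.05), passed the test, and the difference between the other classes (0.02, adjusted p = 0.804) did not. Gpc4, a glypican that adipocytes release and that is known to bind the insulin receptor, ranged from 8.73 to 22.2 CPM over the classes and libraries and was 0.37 higher in Icam1+ preadipocytes than in Dpp4+ fibroblasts on the log2 scale (adjusted p = 0.00151). Sdc3, the neural syndecan, was near the limit of detection here, at 0.792, 0.919 and 2.52 CPM in the same order of classes. Beside this, the sums of the endothelial marker list were 65.2 to 104 CPM in Dpp4+ fibroblasts and 83.2 to 235 CPM in Cd142+ fibroblasts, and those of the immune list 5.96 to 22.5 and 7.45 to 96.3 CPM. Their part in the Sdc3 difference between these classes (log2 1.71, SE 0.23, adjusted p = 9.35e-06) was not tested.

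Between endothelial cells and ASPCs, Sdc3 was higher in endothelial cells and the other members were higher in ASPCs. Endothelial cells had Sdc3 at 62.3, 69.1 and 77.4 CPM in the young libraries (TN, 3D, 14D) and 68.8, 64.4 and 69.7 CPM in the aged ones, and all ASPCs together had 0.838 to 2.10 CPM. The log2 difference was 5.50 (SE 0.15, adjusted p = 2.82e-15). All 8 members differed between endothelial cells and ASPCs, 1 higher and 7 lower, beside 75.3% of the 11833 genes tested. The falls were largest for Sdc2 (-4.14, SE 0.14), Gpc3 (-4.09, SE 0.28), Gpc6 (-4.08, SE 0.19) and Sdc4 (-3.0, SE 0.15). Gpc4 was the smallest difference (-0.38, SE 0.16, adjusted p = 0.035), and it no longer passed the test without the library of young mice at TN (adjusted p = 0.0709), of aged mice at TN (0.271) or of aged mice after 3D (0.0998).

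In mural cells, the smooth muscle cells and pericytes of vessels, 4 of 8 members differed from ASPCs beside 58.8% of all genes. Sdc1 was higher, at 38.4 ± 14.0 CPM (SD, n = 6) with a log2 difference of 1.59 (SE 0.22, adjusted p = 5.00e-06), and Gpc3 (-2.26), Gpc6 (-1.32) and Sdc2 (-1.18) were lower. The cell filter, set per library, kept 733 mural cells, and limits equal for all libraries kept 2015. With the latter cells Gpc4 and Sdc4 were higher than in ASPCs, by 0.89 (adjusted p = 1.02e-05) and 0.62 (adjusted p = 0.000108) on the log2 scale, where the per-library filter gave -0.02 and -0.0013.

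The small Schwann and immune classes are described without a test. Schwann cells, the glia of peripheral nerves, had Sdc4 at 999.8 to 1580 CPM and Gpc1 at 76.5 to 162 CPM, from 13 to 36 cells per library and 482 and 47 UMIs in all. In every library both values were higher than in each of the ASPC, endothelial, mural and immune classes. The immune cells left after CD45 depletion, 19 to 45 per library, had Sdc3 at 82.6 to 283 CPM from 208 UMIs, above the endothelial level of each library.

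Gpc3 was the member that changed most with age. In Dpp4+ fibroblasts it had 364, 460.2 and 363 CPM in young TN, 3D and 14D libraries and 104, 128 and 131 CPM in the aged ones. The ages did not overlap, and the fall was present at each temperature. The means were 396 ± 55.8 and 121 ± 14.7 CPM (SD, n = 3), and the log2 fold change from a fit with temperature as a term was -1.75 (SE 0.07, adjusted p = 2.69e-06).

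In Icam1+ preadipocytes Gpc3 had 82.7, 79.8 and 71.6 CPM in the young libraries and 16.2, 14.6 and 36.0 CPM in the aged libraries. The aged 14D library was the highest of the aged ones and still lay below each young library. The log2 fold change was -1.93 (SE 0.24, adjusted p = 0.00148). In Cd142+ fibroblasts the values were 345, 348 and 315 CPM in young and 161, 94.3 and 142 CPM in aged libraries, again without overlap, with a log2 fold change of -1.38 (SE 0.12, adjusted p = 6.39e-05). Dpp4+ fibroblasts, higher in Gpc3 than Icam1+ preadipocytes, made up 45.6%, 40.8% and 48.7% of the kept cells in young TN, 3D and 14D libraries. In the aged libraries they made up 22.2%, 36.0% and 32.5%. Over all ASPCs together the log2 fold change of Gpc3 was -1.72 (SE 0.13, adjusted p = 0.00188), and the part of these shares in it was not tested. The gate limits behind these values were set after cells and member levels had been seen, and an earlier form of the gate, with no minimum of detected class markers, gave 369, 375 and 323 CPM in young and 217, 106 and 161 CPM in aged Cd142+ fibroblasts and a log2 fold change of -1.19 (adjusted p = 0.00179).

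**Figure D2:**
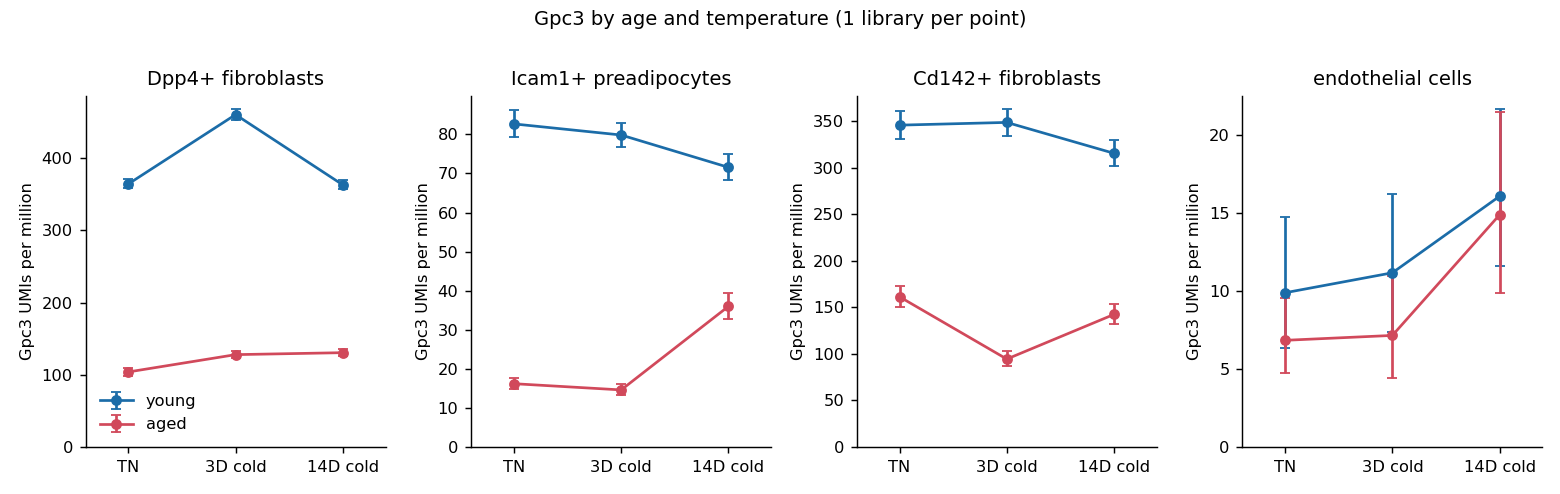
Gpc3 level (y axis, CPM, linear from 0, each panel with its own scale) at TN and after 3D or 14D of cold (x axis) in young (blue) and aged (red) libraries, with 95% Poisson intervals of the UMI count as bars. In the 3 ASPC classes every aged point lies below every young point. In endothelial cells the points lie between 6.84 and 16.1 and the ages overlap. At each temperature the aged endothelial point is below the young one (log2 ratios -0.53, -0.64 and -0.11). Its log2 fold change was -0.37 (SE 0.23, adjusted p = 0.517 in edgeR), and its difference from the ASPC fold changes was not tested.

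Without the shallowest library, that of aged mice after 14D, the log2 fold changes of Gpc3 were -1.83, -2.39 and -1.48 in Dpp4+, Icam1+ and Cd142+ cells. The young 14D library then stood alone at its temperature and carried no information on age. Under 15 alternatives, which included each library left out in turn, cells thinned to equal depth, DESeq2 and other gates, the lowest and highest fold changes were -1.84 and -1.69 (Dpp4+), -2.40 and -1.69 (Icam1+) and -1.51 and -1.16 (Cd142+), and all passed the threshold.

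The fall was visible in single cells as well. Cells with 2000 or more UMIs were thinned to 2000 each, which left out 865 Dpp4+, 712 Icam1+ and 307 Cd142+ cells, all of them from aged mice at TN or after 14D. In Dpp4+ fibroblasts 44.8%, 51.6% and 45.1% of the thinned cells had a Gpc3 UMI in young libraries and 14.9%, 18.4% and 19.2% in aged ones. In Cd142+ fibroblasts the shares were 37.5%, 45.2% and 40.9% in young and 17.97%, 11.4% and 21.4% in aged libraries, and in Icam1+ preadipocytes 14.1%, 12.8% and 12.2% in young and 2.56%, 2.55% and 6.35% in aged libraries. The exact permutation test of 3 aged against 3 young shares gave p = 0.1 (two-sided) in each class, the smallest value that this design allows. Before thinning, with the young libraries deeper, the mean shares were 81.1% for young and 32.1% for aged Dpp4+ cells, 39.8% and 8.28% for Icam1+ cells and 73.7% and 26.1% for Cd142+ cells.

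Endothelial cells of the same suspensions, in which the gene was low, served as the comparison for RNA free in the suspension. At the same depth 0.775% to 2.27% of them had a Gpc3 UMI. The lowest ASPC share, in aged Icam1+ preadipocytes after 3D, was 2.55% (exact 95% interval 2.05% to 3.13%) against 0.897% (0.330% to 1.94%) of the endothelial cells of that library. Among the cells that had a Gpc3 UMI, aged Dpp4+ fibroblasts held 1.43 ± 0.065 UMIs and young ones 1.68 ± 0.109 (SD, n = 3, exact permutation p = 0.1). In Icam1+ preadipocytes the order was the opposite, with 1.27 in aged and 1.23 in young libraries (exact permutation p = 0.1), and in Cd142+ fibroblasts the values were 1.84 and 1.82 and overlapped between ages (exact permutation p = 0.9). Cells with 3 or more Gpc3 UMIs made up 7.92% of young and 1.52% of aged Dpp4+ fibroblasts.

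**Figure D3:**
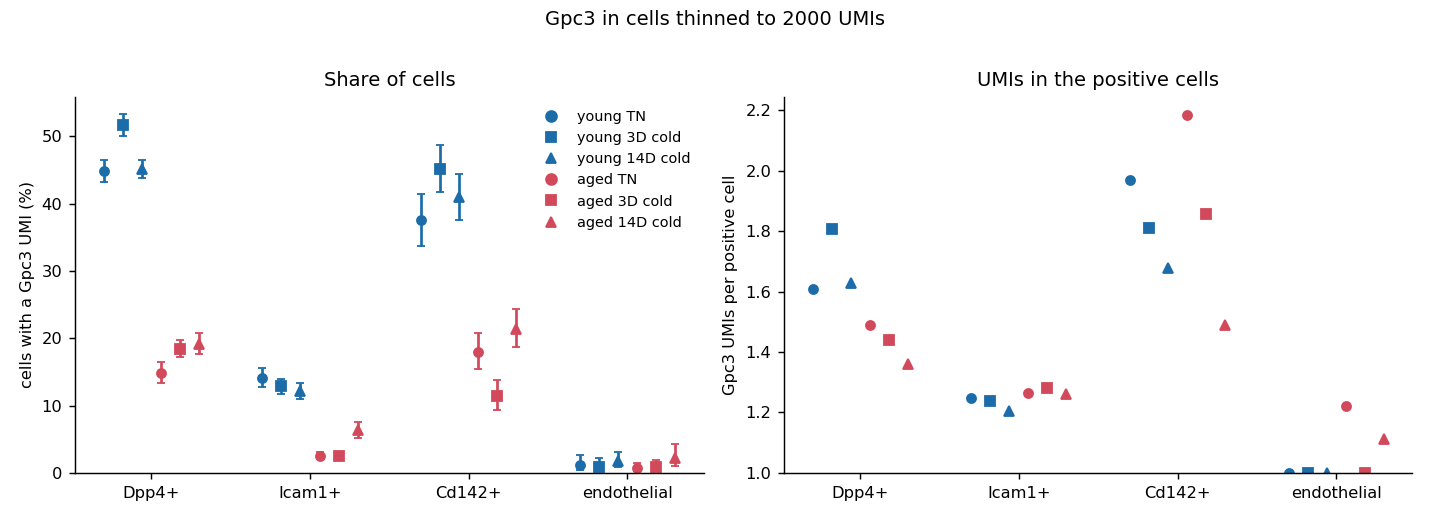
Share of cells with at least 1 Gpc3 UMI (left, y axis in percent, bars are exact 95% binomial intervals) and mean Gpc3 UMIs in those cells (right, y axis starting at 1, the lowest possible value) after thinning each cell to 2000 UMIs, by class (x axis) with 1 point per library. Aged (red) shares lie below young (blue) shares in the 3 ASPC classes, while the UMIs per positive Cd142+ cell overlap between ages.

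The other members changed less. In Dpp4+ fibroblasts 2 of 8 members changed with age, both lower, beside 15.5% of the 13423 genes tested. In Icam1+ preadipocytes it was 2 of 8, 1 higher and 1 lower, beside 12.8% of 13495 genes. In Cd142+ fibroblasts it was 3 of 8, all lower, beside 11.0% of 11522 genes, and over all ASPCs together 1 of 8 beside 9.94%. The median log2 fold changes of the members were 0.09, -0.12 and -0.0033 in the 3 classes, next to 0.0011, -0.0023 and -0.00087 over all genes.

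Gpc4, the neighbor of Gpc3 on chromosome X, was lower in aged Dpp4+ fibroblasts, at 13.2, 12.1 and 11.5 CPM in young and 11.3, 9.17 and 8.73 CPM in aged libraries. The ages did not overlap, by a margin that is small against the Gpc3 difference, and the log2 fold change was -0.38 (SE 0.09, adjusted p = 0.0209). In Cd142+ fibroblasts Gpc4 had 22.2, 13.1 and 17.0 CPM in young and 14.3, 8.90 and 8.94 CPM in aged libraries, which overlapped, with a log2 fold change of -0.71 (SE 0.15, adjusted p = 0.0114). In Icam1+ preadipocytes it was -0.16 (SE 0.09, adjusted p = 0.303). The call in Dpp4+ fibroblasts was lost without the young 3D (adjusted p = 0.133), young 14D (0.0506), aged 3D (0.106) or aged 14D library (0.0622), and the call in Cd142+ fibroblasts without the young TN (0.0795) or aged TN library (0.0519) and in thinned cells, where the log2 fold change was -0.32 (adjusted p = 0.593). DESeq2 called neither (adjusted p = 0.148 and 0.237).

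Gpc1 was the member that rose. In Icam1+ preadipocytes, the ASPC class in which it was highest, it had 11.3, 8.68 and 10.8 CPM in young and 18.2, 12.5 and 13.6 CPM in aged libraries. Each aged library lay above all young ones, and the log2 fold change was 0.53 (SE 0.10, adjusted p = 0.00855). Without the aged 3D library its adjusted p was 0.0507, and with no term for temperature 0.143. Over all ASPCs together Gpc1 had 4.13 to 4.85 CPM in young and 5.65 to 10.8 CPM in aged libraries, a log2 fold change of 0.66 that missed the threshold (adjusted p = 0.0613) and passed it without the aged 14D library (0.86, adjusted p = 0.0444). Aged TN, the highest of these libraries, was also the library with the largest share of Icam1+ preadipocytes (40.2% of its cells).

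Sdc4 was lower in aged Cd142+ fibroblasts, the ASPC class in which it was highest. The values were 195, 190.4 and 212 CPM in young and 154, 167 and 168 CPM in aged libraries, with a log2 fold change of -0.29 (SE 0.08, adjusted p = 0.0349). In Dpp4+ fibroblasts and Icam1+ preadipocytes its fold changes were 0.03 and -0.05 (adjusted p = 0.729 and 0.665). Over 15 alternatives the Cd142+ log2 fold change lay between -0.37 and -0.25, and 6 kept the call. It was lost with either library of TN or of 14D left out, with no temperature term, with DESeq2 (adjusted p = 0.178) and with some of the other cell, gate or count settings. At 3D it was lost without the young library and kept without the aged one. Leaving out either library of a temperature takes that temperature out of the age test, so these fits are not separate tests.

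Gpc6, Sdc2, Sdc1 and Sdc3 had no call for age in any ASPC class. Gpc6 in Dpp4+ fibroblasts was 99.1 ± 6.33 CPM in young and 113 ± 5.69 in aged libraries (SD, n = 3, log2 fold change 0.15, adjusted p = 0.135). Sdc2 in Icam1+ preadipocytes was 249 ± 12.2 in young and 215 ± 20.2 in aged libraries (-0.21, adjusted p = 0.0621), and it passed without the young TN library (-0.23, adjusted p = 0.0405). Sdc1 differed in sign between classes, with 0.45 in Dpp4+ fibroblasts (adjusted p = 0.158) and -0.51 in Icam1+ preadipocytes (adjusted p = 0.111). In Icam1+ preadipocytes it passed without the young TN (adjusted p = 0.0496), young 3D (0.00476) or aged 3D library (0.00507), and in Dpp4+ fibroblasts without the young 14D (0.0359) or aged 14D library (0.042). Its log2 ratios of aged over young at TN, 3D and 14D were -0.50, 0.04 and -1.18 in Icam1+ preadipocytes and 0.88, 0.49 and 0.12 in Dpp4+ fibroblasts. The fits without a 3D library (Icam1+) or a 14D library (Dpp4+) thus took the smallest ratio out of the age test. The fits without the young and without the aged library of a temperature are not separate tests.

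**Figure D4:**
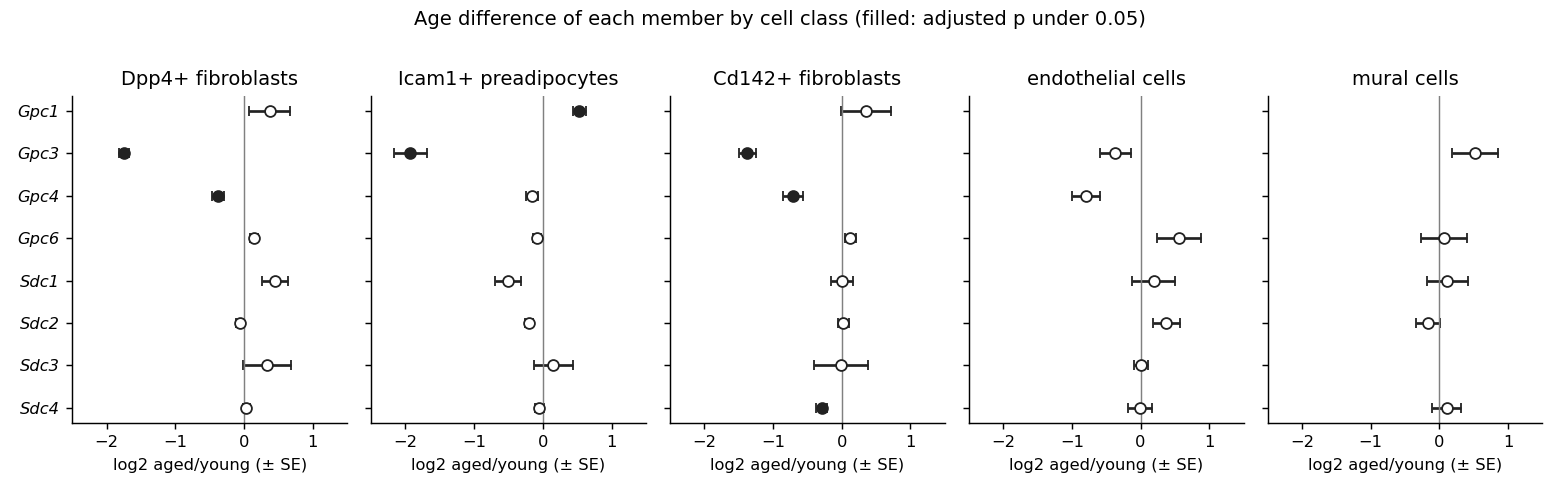
Log2 fold change of aged over young libraries (x axis, bars are the SE derived from the F statistic) for each member (y axis) in 5 cell classes, filled where the adjusted p was under 0.05. Gpc3 stands at -1.75, -1.93 and -1.38 in the 3 ASPC classes, and no other member passes 1 in either direction in them.

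Whether the age effects differed between classes was tested as an interaction of age and class. No member passed in edgeR. This was 0 of 8 between Dpp4+ fibroblasts and Icam1+ preadipocytes, beside 1.47% of all genes. It was 0 of 8 between Dpp4+ and Cd142+ fibroblasts (1.53%) and between Icam1+ preadipocytes and Cd142+ fibroblasts (1.02%). At an unadjusted p under 0.05 there were 1, 2 and 6 members, beside 1973 of 14052, 1514 of 12831 and 1424 of 12691 genes. DESeq2 passed 1, 0 and 0 members. Sdc1 came nearest, with a difference of -0.99 between the fold changes in Icam1+ preadipocytes and Dpp4+ fibroblasts (SE 0.21, adjusted p = 0.055, and 0.042 without the young 3D library). The Gpc3 fold was 0.38 weaker in Cd142+ than in Dpp4+ fibroblasts (SE 0.18, adjusted p = 0.423) and 0.55 weaker than in Icam1+ preadipocytes (SE 0.23, adjusted p = 0.39). These differences were 0.64 without the aged 3D library (adjusted p = 0.0372) and 0.89 without the aged 14D library (adjusted p = 0.0171). For Sdc4 the difference between Cd142+ and Dpp4+ fibroblasts was -0.32 (adjusted p = 0.0875), and without the young 3D library -0.39 (adjusted p = 0.0432). Since each age and temperature had 1 library, an interaction of age and temperature could not be tested.

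The test for temperature passed few members. In Icam1+ preadipocytes 1 of 8 members changed, beside 5.0% of all genes. This was Gpc6, which had 38.7, 43.9 and 49.3 CPM at TN, 3D and 14D in young mice and 35.7, 40.3 and 48.3 CPM in aged mice, the same order at both ages. Its log2 differences from TN were 0.21 at 3D and 0.41 at 14D, tested together (adjusted p = 0.0428). The call was lost without the young 3D, aged TN, aged 3D or aged 14D library, where 1 temperature rested on 1 library. It was also lost with DESeq2 (adjusted p = 0.16), with thinned cells (log2 difference at 14D of 0.27, adjusted p = 0.386), with a stricter gate (0.0555) and without the deepest cells (0.087). With no term for age the call was lost too (0.591), but there 0 of 13495 genes passed, so this loss is not particular to Gpc6. Of 15 alternatives 6 kept the call.

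Other members of Icam1+ preadipocytes passed for temperature when 1 library was left out. The temperature of that library then rested on 1 library, so only the sizes at 14D against TN are given. Gpc3 was 0.46 higher at 14D than at TN on the log2 scale (adjusted p = 0.428). This became 0.83 without the young TN library and 1.18 without the young 14D library. In the latter fit 14D was the shallow aged library alone. From TN to 14D Gpc3 fell in the young and rose in the aged libraries. Without the young 14D library Sdc1 (-0.90) and Gpc1 (-0.38) passed as well, without the aged 3D library Sdc1 (-0.38), and without the young TN library Sdc4 (0.13). More of all genes passed as well without the young TN or the young 14D library, but not without the aged 3D library.

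In Dpp4+ fibroblasts, Cd142+ fibroblasts and all ASPCs 0 of 8 members passed for temperature in edgeR, beside 4.49%, 1.98% and 0.448% of all genes. At an unadjusted p under 0.05 there were 1, 2 and 2 members, beside 3262 of 13423, 1622 of 11522 and 3221 of 15194 genes. None passed in DESeq2. Gpc4 had its highest level at TN in all 3 classes at both ages, and its log2 differences at 14D were -0.24, -0.38 and -0.49 in Dpp4+, Icam1+ and Cd142+ cells (adjusted p = 0.292, 0.0802 and 0.119). Gpc3 in Dpp4+ fibroblasts was 0.30 higher at 3D and 0.18 higher at 14D than at TN on the log2 scale (adjusted p = 0.137). Some members passed when 1 library was left out, which left 1 library at its temperature. Without the young 14D library these were Gpc3 in Dpp4+ and Cd142+ fibroblasts, Gpc4 in Cd142+ fibroblasts and Sdc1 in all ASPCs. Without the aged 14D library they were Gpc3 in Dpp4+ and Gpc4 in Cd142+ fibroblasts. Without the young TN library they were Gpc1, Gpc4 and Gpc6 in all ASPCs. A larger share of all genes passed in each of these fits as well, so the passes are not read as results about the members.

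Endothelial and mural cells had no call for a member. For age 0 of 7 tested members passed in endothelial cells, beside 0.711% of all genes, and 0 of 5 in mural cells, beside 0.537%. For temperature it was 0 of 7 beside 0.841% and 0 of 5 beside 0.423%. At an unadjusted p under 0.05 edgeR had 1 and 0 members for age, beside 1432 of 10696 and 688 of 6149 genes. For temperature it had 4 and 1 members, beside 1227 of 10696 and 570 of 6149 genes. The 4 in endothelial cells were Gpc3, Gpc6, Sdc2 and Sdc4. Their log2 differences at 14D from TN were 0.91, 1.44, 0.88 and 0.67 (adjusted p = 0.271, 0.243, 0.232 and 0.253). They are also the members with the largest falls from ASPCs to endothelial cells, and a part of RNA free in the suspension was not tested. DESeq2 passed none. Gpc4 in endothelial cells had 15.3, 13.2 and 17.96 CPM in young and 8.45, 7.50 and 10.1 CPM in aged libraries. The ages did not overlap, and the log2 fold change was -0.80 (SE 0.21), with an adjusted p of 0.128 that became 0.0214 when genes with low counts were kept. Endothelial Sdc3 was 69.6 ± 7.60 CPM in young and 67.6 ± 2.83 in aged libraries (SD, n = 3, log2 fold change 0.0076, SE 0.10).

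The genes that make and process heparan sulfate chains were read from lists, whose counts stand beside the shares of all genes that changed with age, 15.5%, 12.8% and 11.0% in Dpp4+, Icam1+ and Cd142+ cells. Of the 14 tested genes of linker and chain synthesis 2 fell with age in Dpp4+ fibroblasts, 1 rose and 2 fell in Icam1+ preadipocytes and 1 rose in Cd142+ fibroblasts. Ext1, part of the polymerase of the chain, was 61.7 CPM in young and 50.5 CPM in aged Icam1+ preadipocytes (log2 fold change -0.28, adjusted p = 0.0249). Papss2, which makes the sulfate donor, rose by 0.54 in Icam1+ preadipocytes (24.4 to 35.4 CPM, adjusted p = 0.0104) and by 0.46 in Cd142+ fibroblasts (38.2 to 53.0 CPM, adjusted p = 0.00988). Of 8 tested genes of chain modification 2 fell in Dpp4+ fibroblasts (15.5% of all genes changed there) and none passed in the others. Hs3st1, a 3-O-sulfotransferase, was 61.8 CPM in young and 44.7 CPM in aged Dpp4+ fibroblasts (-0.49, adjusted p = 0.000623).

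Sulf1, an extracellular 6-O-endosulfatase that edits the chains, fell by 0.39 on the log2 scale in Icam1+ preadipocytes, from 43.1 to 32.7 CPM (adjusted p = 0.0049). Among 5 tested genes for the release of core proteins Mmp14, a membrane-bound metalloproteinase, rose in Dpp4+ fibroblasts (174 to 217 CPM, adjusted p = 0.0221) and in Cd142+ fibroblasts (209 to 271 CPM, adjusted p = 0.0123). Adam17, a sheddase, fell in the same classes (76.4 to 62.6 CPM, adjusted p = 0.0137, and 56.8 to 45.5 CPM, adjusted p = 0.0464). Of the cytoplasmic partners of syndecans, 7 tested in Dpp4+ and Icam1+ cells and 6 in Cd142+ fibroblasts, Sdcbp (syntenin) alone passed, rising by 0.27 in Cd142+ fibroblasts (adjusted p = 0.0362).

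Other heparan sulfate proteoglycans had 2 rises and 1 fall of 7 in Dpp4+ fibroblasts, no call of 7 in Icam1+ preadipocytes and 1 fall of 7 in Cd142+ fibroblasts, beside 15.5%, 12.8% and 11.0% of all genes changed in either direction. Hspg2 (perlecan), a basement membrane proteoglycan, fell in Dpp4+ fibroblasts from 255 ± 18.4 to 184 ± 11.0 CPM (SD, n = 3, log2 fold change -0.51, adjusted p = 0.00145) and in Cd142+ fibroblasts from 324 to 251 CPM (-0.38, adjusted p = 0.0173). Cd44, a hyaluronan receptor with a heparan sulfate isoform, and Srgn, a granule proteoglycan, rose by 0.40 and 0.45 in Dpp4+ fibroblasts (adjusted p = 0.00503 and 0.00156).

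In the Hedgehog pathway, to which Gpc3 is linked, 3 of 8 tested genes fell in Dpp4+ fibroblasts, 4 of 10 fell in Cd142+ fibroblasts and 2 of 10 rose in Icam1+ preadipocytes, beside 15.5%, 11.0% and 12.8% of all genes changed in either direction. In all ASPCs together 2 of 11 rose and 2 fell, beside 9.94%. Gas1, a Hedgehog coreceptor, had 407 ± 125 CPM in young and 222 ± 75.8 CPM in aged Dpp4+ fibroblasts (log2 fold change -0.92, SE 0.06, adjusted p = 3.36e-05) and 768 ± 124 and 524 ± 182 CPM in Cd142+ fibroblasts (-0.60, adjusted p = 0.0051). Cdon, another coreceptor, fell by 0.41 in Dpp4+ fibroblasts (adjusted p = 0.0161), and Boc, its homolog, rose by 0.50 in Icam1+ preadipocytes (adjusted p = 0.00274). The median log2 fold changes of the pathway were -0.29, 0.11 and -0.41 in Dpp4+, Icam1+ and Cd142+ cells and 0.18 in all ASPCs together. The ligands Shh, Ihh and Dhh were not among the genes tested in the Dpp4+, Icam1+ and Cd142+ classes. In all ASPCs together 11 of the 13 genes of the list were tested, so the ligands were not all untested there.

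**Figure D5:**
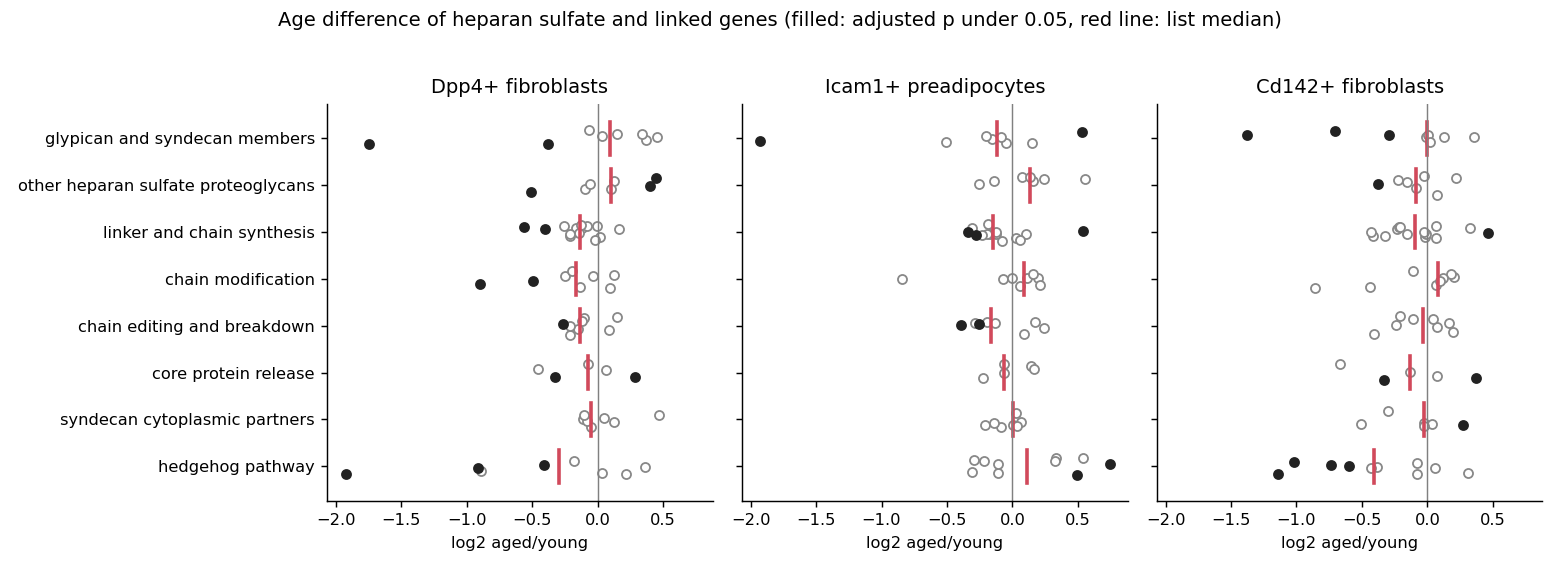
Log2 fold change of aged over young libraries (x axis, the same scale in each panel) for the tested genes of 8 lists (y axis) in the 3 ASPC classes, filled where the adjusted p was under 0.05, with a red line at the median of each list. Gpc3 is the leftmost member point in each panel, and the list medians lie between -0.41 and 0.14.

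The genes whose levels were most like those of Gpc3 over the 18 sums of 3 ASPC classes in 6 libraries, among 5554 genes with a mean of at least 20 CPM, were Cpz (Pearson's r = 0.95), Olfml2b (0.941), Man2a1 (0.933), Pigk (0.926) and Amy1 (0.924). For Gpc6 they were Ptprj, Kcnk5, Sec14l1, Wnt10b and Trio (0.983 to 0.989), for Sdc4 Ecm2, Cp, Cish and Timp1 (0.961 to 0.968) and for Sdc2 Slc35b2, Nfib, Svep1, Apoe and Adcyap1r1 (0.855 to 0.891). Sums of a library share its depth and sums of a class share its cells, so these values describe the 18 sums.

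Within 1 Mb of Gpc3, 17 of 45 annotated neighbors were in the count tables and 9, Gpc4 among them, were tested in an ASPC class or in all ASPCs together. Hprt (52988137 to 53021659 on chromosome X), a purine salvage enzyme, had 47.1 and 44.6 CPM in young and aged Dpp4+ fibroblasts (log2 fold change -0.11, adjusted p = 0.269), and Phf6 and Mospd1 were likewise not called in any of the 3 classes. Fam122b was lower in aged Dpp4+ fibroblasts (4.36 and 2.31 CPM, -0.95, adjusted p = 0.00251) and Icam1+ preadipocytes (-1.25, adjusted p = 0.00789) but not in Cd142+ fibroblasts (-0.11, adjusted p = 0.901). Gm28730, under 1 CPM, was lower in aged Icam1+ preadipocytes (-2.38, adjusted p = 0.0129). These neighbors were chosen for mention after their values were seen.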

How the data were processed

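Stromal vascular cells of mouse iWAT were profiled in 6 libraries with a 10x Genomics 3′ kit. The authors deposited, for each library, filtered UMI counts per gene and barcode, made with Cell Ranger (version 3.1.0 per the file headers) on build mm10. Per the labels, R 4.1.1 and Seurat were used afterwards, and these later steps are not in the deposited counts. No column was left unmapped.

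Barcodes with over 200 genes were kept where log10 UMIs and log10 genes lay within 3 scaled median absolute deviations of the median of their library and the mitochondrial share did not exceed it by more than 3. A cell was given the lineage of which most markers had a UMI, if these were at least 40% of that list and led the next list by 10 percentage points. Cells with a smaller lead (356) or too few markers (174) were left out, and no doublet caller was run. An ASPC class needed a mean standardized marker level leading the next class by 0.2 SD, and 3 detected markers. These limits were set after cells and member levels had been seen, and 5434 ASPCs lay within 0.1 SD of the limit on the lead. The members, lists and comparisons were chosen with earlier results of these data known.

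UMIs were summed per library and class and tested with edgeR 4.0.16 (R 4.3.3; TMM factors, quasi-likelihood F test, Benjamini-Hochberg adjustment over all genes that passed edgeR's filter on low counts, threshold 0.05). Age was tested with temperature as a term and the reverse, and classes, lineages and interactions with library as a block. Each SE is the size of the log2 difference divided by the square root of its F statistic. All 8 members passed the filter in the ASPC classes, 7 in endothelial and 5 in mural cells. Shares of cells were compared by exact permutation tests over libraries (scipy 1.17.1). Intervals cover counting error only. Alternatives were DESeq2 1.42.0, other size factors, no filter on low counts, thinned cells, fixed cell filters (1000 to 7000 genes, at most 10% mitochondrial UMIs), a stricter gate, the deepest 10% of cells left out, no second term and each library left out. A gate without the minimum of markers, the form used first, was added after seeing the data. Leaving out the young or the aged library of a temperature takes that temperature out of the age test. Both fits are therefore nearly the same test of age, with fewer residual degrees of freedom. Their adjusted p-values are not to be compared in strength with those of all 6 libraries. In the temperature test the temperature of the library left out then rests on 1 library. From each other list up to 3 rises and 3 falls past the threshold with at least 20 CPM in one age are named, and some genes that this rule or the likeness to a member would name are not reported here, nor are the counts of the list for chain editing and breakdown. The fits were tested on simulated data. Amino acid sequences were not used here.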

Additional observations from a re-analysis of the deposited data

Results flagged for a closer look

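For 6 combinations of a member and a pair of cell types, every aged library lay on one side of its young counterpart at the same temperature in one type and on the other side in the other type. None of these differences was tested. Gpc1 was lower in aged endothelial cells, with a mean log2 ratio of aged over young of -1.61 (-0.71 at TN, -1.45 at 3D and -2.66 at 14D), while it was higher in aged Dpp4+ fibroblasts (0.43), Icam1+ preadipocytes (0.52) and all ASPCs together (0.66). The endothelial ratio rests on 32 UMIs in all 6 libraries. Gpc6 was 0.51 higher in aged endothelial cells, from 85 UMIs in all, against -0.09 in Icam1+ preadipocytes. Sdc2 was 0.34 higher in aged endothelial cells, from 248 UMIs in all, against -0.21 in Icam1+ preadipocytes, and in mural cells it was -0.25.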

How the results depend on the processing

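The fall of Gpc3 with age kept its direction and its side of the threshold in each of 15 alternatives in the 3 ASPC classes and in all ASPCs together. Over all single members 2100 results kept their side of the threshold, 52 passed it newly and 40 no longer passed. Changes of sign between fits without a call are counted among the 2100. Another 2 changed sign with a call in either fit. These were the mural differences of Gpc4 and Sdc4 from ASPCs under equal cell filters (0.8862 and 0.6166 on the log2 scale). Of the counts of members that follow, only the larger moves are named, and a move between 2 and 3 is not. Members changed with age in Dpp4+ fibroblasts numbered 2, and 1 with DESeq2 or no temperature term. In Icam1+ preadipocytes it was 2, 4 without a filter on low counts and 1 with no temperature term. In Cd142+ fibroblasts it was 3, and 1 with DESeq2 or no temperature term. Over all genes the age calls in these classes were 2082, 1725 and 1271 in the main fit. They were 1293, 932 and 466 with DESeq2 and 707, 216 and 428 with no temperature term. With no filter they were 2420 of 20249 in Icam1+ preadipocytes. In all ASPCs the member count for age was 1, and 2 with DESeq2, no filter or thinned cells. All genes called there were 1510 of 15194, and 1478 of 15194, 2069 of 22042 and 1237 of 12912. In endothelial cells the member count was 0, and 1 with no filter, beside 76 of 10696 and 486 of 17951 genes. For temperature the counts were 0, 1 and 0 in Dpp4+, Icam1+ and Cd142+ cells and 1, 5 and 1 with no filter, and that of Icam1+ preadipocytes was 0 with DESeq2, thinned cells, the stricter gate, no deepest cells or no age term. Over all genes 2343 of 20395, 2001 of 20249 and 663 of 18320 passed with no filter, against 603, 675 and 228 in the main fit. With no age term 0 genes passed in these 3 classes. In mural cells the member count for temperature was 0, and 1 under equal cell filters, beside 26 of 6149 and 294 of 9420 genes. Interactions of age and class numbered 0. Without a filter they numbered 1 (Dpp4+ and Icam1+), 2 (Dpp4+ and Cd142+) and 2 (Icam1+ and Cd142+), the first was 1 with DESeq2 or equal filters, and the second 1 with the earlier gate. Over all genes the interactions numbered 206, 196 and 130 in the main fit and 482, 563 and 516 without a filter. The first was 220 with DESeq2 and 277 with equal filters, and the second 187 with the earlier gate. Without thinning, the aged minus young share of Gpc3-positive cells was -49.1, -31.5 and -47.7 percentage points in Dpp4+, Icam1+ and Cd142+ cells, where thinned cells gave -29.7, -9.21 and -24.3. Thinning and the missing filter change depth and the genes tested by construction; for the other alternatives the cause was not tested.

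With each library left out in turn, members changed with age ranged from 1 to 2 in Dpp4+, 2 to 4 in Icam1+, 1 to 3 in Cd142+ cells, 1 to 2 in all ASPCs and 0 to 0 in endothelial and mural cells. For temperature the ranges were 0 to 1, 0 to 4, 0 to 2, 0 to 3 and 0 to 0 in the same order. Differences between ASPC classes ranged from 19 to 20, between lineages from 11 to 12, and each interaction from 0 to 1. The number of all genes that passed moved between these fits as well, so the ranges are not read as results about the members. No paired analysis was possible by replicate number because each group had 1 library, so that the numbers mark no pairs beyond those that the temperature term of the age test and the library block of the class tests already use. Sdc3 in ASPCs and Gpc1 in Dpp4+ and endothelial cells rest on few UMIs, which limits the precision of their fold changes.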

Other observations

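The 6851 ASPCs to which no class could be given, of which 2919 came from aged mice after 14D, had Gpc3 at 271, 334 and 220.3 CPM in young TN, 3D and 14D libraries and at 141, 86.9 and 139.8 CPM in the aged ones, without overlap. Sdc2 in the same cells was 242 ± 10.7 CPM in young and 232 ± 18.5 CPM in aged libraries (SD, n = 3). Of the other glypicans of the mouse, Gpc2 had 1 UMI and Gpc5 2 UMIs in all ASPCs.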
